A study of Homo sapiens with 15 samples.

Results

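The transcripts of the endosomal retromer and of the sorting nexins (SNX) that work with it were measured in MDA-MB-468 cells, an established human breast cancer line with abundant epidermal growth factor receptor (EGFR). The 10 genes were taken by symbol and all 10 were found among the 61552 Ensembl gene IDs of the counts table. They are SNX1, SNX2, SNX5 and SNX6, which form membrane-bending dimers, SNX3 and SNX27, which bring cargo to the coat, and VPS26A, VPS26B, VPS29 and VPS35, which make the retromer core. All 10 passed the filter on low counts in every comparison. Polyadenylated RNA was sequenced in 15 libraries, 3 in each of 5 groups.

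In the drug experiment the parental cells were serum starved for 12 h and then received 10 ng/mL EGF for 12 h, either alone (EGF), with 10 μM of the peptide cSNX1.3 (cSNX1.3), or with 15 μM of the EGFR kinase inhibitor erlotinib (erlotinib). cSNX1.3 was made to block the binding of EGFR to SNX1 and so lower EGFR in the nucleus. None of the groups received a control peptide, so effects of the cSNX1.3 sequence and of adding any peptide cannot be told apart. In the line experiment both groups carried an shRNA against endogenous EGFR, induced with 1 mM IPTG, and were transfected with GFP-tagged EGFR that was wildtype (shEGFR-WT, here WT) or had basic residues of its nuclear localization sequence replaced (shEGFR-NLS, here ΔNLS). Both line groups received EGF, at a dose that is not given in the sources used here. The lines differ from the parental cells by the knockdown and the transgene, so no test was made between the experiments except of the difference of effects. Nothing says that the 3 libraries of a group came from separate cultures, so p-values measure only the spread between these libraries, which may be technical.

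The retromer is a coat on early and late endosomes that rescues membrane proteins from breakdown in the lysosome and returns them to the Golgi or the cell surface. VPS35 is a long curved scaffold that holds a VPS26 protein at its amino-terminal end and VPS29 at its carboxy-terminal end. SNX1 or SNX2 pairs with SNX5 or SNX6 to form a coat of its own that recognizes sorting motifs in cargo tails and drives tubules from the endosome. SNX3 recruits the retromer core to membranes for a separate set of cargo, and SNX27 uses a PDZ domain to return receptors to the plasma membrane.

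Library totals ranged from 22915676 to 35900649 counts and the TMM scaling factors from 0.886 to 1.08. EGFR averaged 4733 CPM (counts as a rate of the scaled library total) with EGF, 6143 with cSNX1.3, 4708 with erlotinib, 1340 in WT and 1727 in ΔNLS cells, where reads of the transgene and of the endogenous gene cannot be told apart. EGFR was called higher in ΔNLS than in WT cells (log2 fold change 0.37, edgeR adjusted p = 0.00367). The part of this difference in the line results was not tested. The epithelial markers EPCAM, CDH1, KRT8, KRT18 and KRT19 were detected in all groups, and the leukocyte genes PTPRC, CD3E and NKG7 were at or near 0. Of the fibroblast and endothelial genes, COL3A1, PDGFRB, VWF and CDH5 stayed under 1 CPM. COL1A1 averaged 9.42 to 20.6 CPM over the groups. PECAM1 averaged 5.17 CPM in WT and 5.18 in ΔNLS cells, against 1.17 to 1.86 in the drug groups. Of the hormone receptors, ESR1 averaged 4.22 to 7.18 CPM and PGR was at 0. In each group 1 library stood farthest from the other 2 over all genes, namely replicate 2 of EGF (EGF 2), replicate 1 of cSNX1.3, replicate 1 of erlotinib (erlotinib 1), replicate 2 of WT (WT 2) and replicate 1 of ΔNLS (ΔNLS 1). In EGF 2, cSNX1.3 replicate 1 and WT 2, the highest value of the group was seen for 8, 8 and 7 of the 10 members, and SNX27 had its lowest value of the group in each of the 3. The deviation of these 3 libraries from their group fell with transcript length across 13393 genes (Spearman rho -0.39, -0.31 and -0.39). That of erlotinib 1 and ΔNLS 1 did so too (rho -0.37 and -0.31). Erlotinib 1 and ΔNLS 1 also deviated with GC content (rho 0.63 and 0.53), against 0.00303, -0.0764 and -0.11 in EGF 2, cSNX1.3 replicate 1 and WT 2. Genes are not independent replicates, and the part of length and GC content in the results was not tested beyond the repeated fits given beside them. These are bulk samples, in which fewer cells of a kind and less RNA per cell cannot be told apart.

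In the drug experiment members were called against EGF only with erlotinib, and the promoters of those 3 genes are shown. The sequences are from RefSeq on GRCh38.p14, 5′ to 3′ on the strand of the gene, and end at the base before the RefSeq transcription start of SNX1 and SNX2. The SNX6 stretch stops 12 bases earlier, where annotated exon begins. Capitals mark GC boxes, the letters GGGCGG read on either strand, which is the motif bound by the SP1 family of factors. The SNX1 stretch (chr15:64095882-64095981, forward strand) lies in an intron of a longer annotated transcript of the gene, the SNX2 stretch (chr5:122774896-122774995, forward strand) lies upstream of the gene, and the SNX6 stretch (chr14:34630161-34630248, reverse strand) lies just upstream of its first exon.
SNX1: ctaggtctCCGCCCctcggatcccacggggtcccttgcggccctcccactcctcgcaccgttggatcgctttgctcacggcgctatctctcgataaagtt
SNX2: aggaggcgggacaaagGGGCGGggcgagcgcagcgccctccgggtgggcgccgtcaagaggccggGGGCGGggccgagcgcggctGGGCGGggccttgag
SNX6: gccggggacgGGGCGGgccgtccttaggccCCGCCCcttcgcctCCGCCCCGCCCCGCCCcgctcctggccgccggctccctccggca

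Over the 250 bases before the start, SNX1 held 4 GC boxes, SNX2 held 3 and SNX6 held 5. A GC box was present in 7 of the 9 members with a promoter entry and in 42.3% of 27305 human promoters of that length. SNX5 and SNX3 had no GC box. The cyclic AMP response element TGACGTCA was found in SNX5 alone among the members (1.77% of all promoters), and the CCAAT box CCAAT in VPS29 and VPS35 (33.0% of all). The E-box CACGTG, the ETS core CCGGAAG and the AP-1 site TGAGTCA were found in none of the 9 and in 6.49%, 8.82% and 4.16% of all promoters. All motifs were searched on both strands. Such a match describes the letters of this window and is neither a binding site nor a cause of a change.

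Per kilobase of annotated exon, SNX3 was by far the most abundant member and SNX27 the least. Averaged over the 15 libraries, SNX3 stood at 158.6 CPM per kb, VPS26A at 30.9, VPS35 at 29.9, VPS29 at 21.7, SNX6 at 17.0, VPS26B at 14.3, SNX5 at 12.3, SNX2 at 7.57, SNX1 at 5.30 and SNX27 at 0.961. This order was the same in each of the 5 groups. VPS26A and VPS35, the neighbours that sit together in the core, overlapped in all 5 groups, VPS29 and SNX6 overlapped with erlotinib, and SNX6 and VPS26B overlapped with EGF, with cSNX1.3 and in ΔNLS cells. All other neighbours in the order were apart in every group. The length used is the union of all annotated exons, which for SNX27 is 16711 bases against 7250 for its longest transcript. With the longest transcript as the length, SNX3 (188.6 CPM per kb) and SNX27 (2.22) kept the first and the last place, VPS29 (45.6) moved ahead of VPS35 (42.9) and VPS26A (37.4), and SNX6 (20.4) came after VPS26B (25.2) and SNX5 (24.8).

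**Figure D1:**
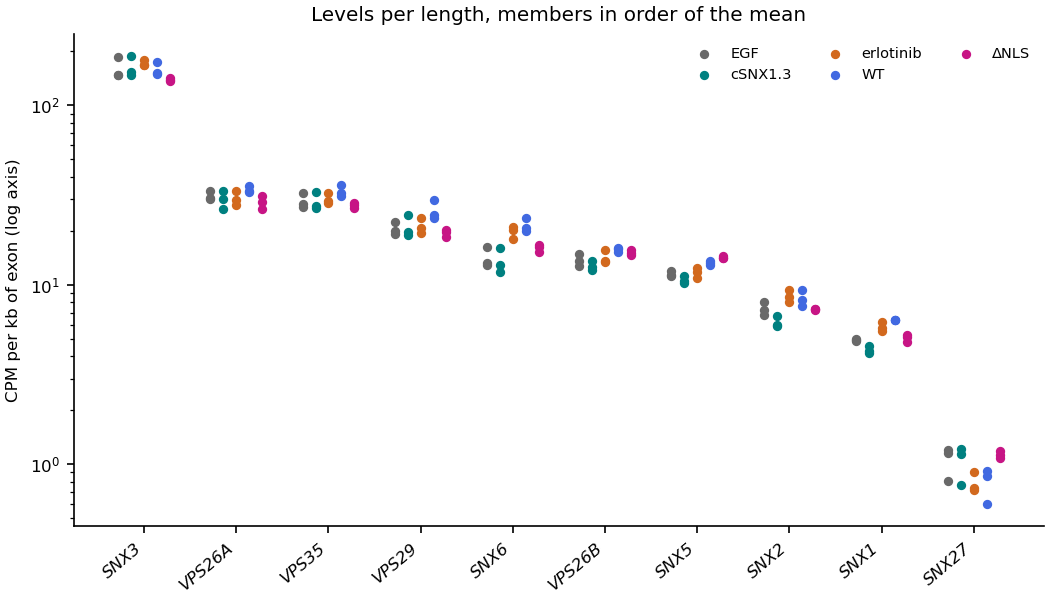
Level of each member per kb of exon (CPM per kb, log axis), with 1 point for each library and 1 colour for each group of 3; members run from the highest to the lowest mean over the 15 libraries. SNX3 stands alone at the top (136.9 to 188.2 CPM per kb) and SNX27 alone at the bottom (0.602 to 1.22).

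Within a gene, the levels moved little between groups. The ratio of the highest to the lowest group mean ran from 1.17 for VPS26A to 1.58 for SNX6. WT cells held the highest mean for 6 members (SNX1, SNX6, VPS26A, VPS26B, VPS29 and VPS35), erlotinib for SNX2 and SNX3, and ΔNLS for SNX5 and SNX27. The lowest mean was with cSNX1.3 for SNX1, SNX2, SNX5, SNX6 and VPS26B. The 8 annotated pseudogenes of the members held at most 4 counts in any library. How reads that fit more than 1 place were counted is not stated, so the effect of near copies on these values was not tested. VPS26B shares 249 bases of exon with NCAPD3 on the opposite strand, a gene with 2360 to 5233 counts, and counting was without strand, so reads of the shared bases cannot be told apart. SNX5 shares 59 bases with OVOL2 (234 to 572 counts) on the same strand, and SNX2 shares 2178 bases with a long noncoding RNA, ENSG00000260686, that was listed at 0 in every library.

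**Figure D2:**
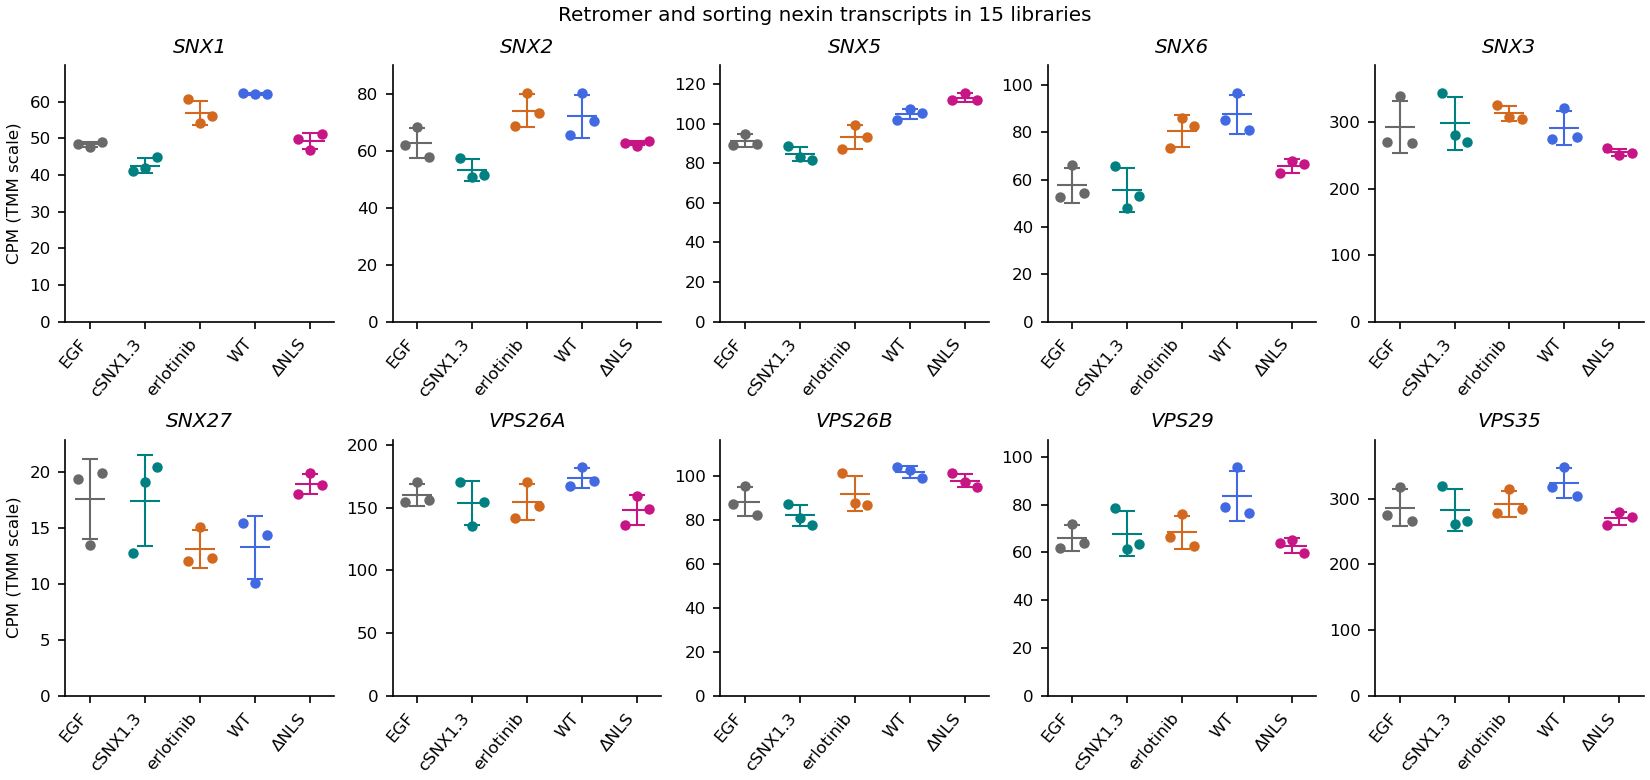
CPM of each member (vertical axis from 0, scaled by TMM) in the 15 libraries by group; points are libraries, the long bar is the mean and the whiskers ± SD (n = 3). SNX1 and SNX6 are high with erlotinib and in WT cells, and SNX27 is lowest on average in the same 2 groups (13.1 and 13.3 CPM).

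Under cSNX1.3, the peptide named for SNX1, none of the 10 genes was called against EGF by edgeR's quasi-likelihood test at a Benjamini-Hochberg adjusted p of 0.05, where 6.07% of the 15738 genes tested were called (3.38% higher and 2.69% lower). DESeq2 called 0 as well, 1 member (SNX2) had an unadjusted p under 0.05 with edgeR, and 0 were called in each of 16 repeated fits with another setting. The 95% intervals of the 10 members lay between log2 fold changes (log2FC) of -0.43 and 0.38, that is between 0.741-fold and 1.301-fold of EGF. In simulated counts of the same groups, 7 of 50 genes changed by 1.2-fold and 39 of 50 changed by 1.5-fold were recovered. Only 153 genes were called in that simulation, against 956 in the data. The adjusted p depends on how many genes change, so these shares do not carry over. Changes of the smaller size could still go undetected here. The median log2FC of the members was -0.05 and that of all genes 0.00203.

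SNX1 and SNX2, the paralogs to which the peptide has sequence homology, sat below EGF in every cSNX1.3 library. SNX1 was at 48.4, 47.6 and 49.1 CPM with EGF and at 41.0, 41.8 and 44.9 CPM with cSNX1.3. SNX2 was at 62.1, 68.7 and 58.1 CPM with EGF and at 57.8, 50.9 and 51.6 CPM with cSNX1.3. The groups did not overlap for either gene, but with log2FC of -0.18 ± 0.0857 (SE) for SNX1 (edgeR adjusted p = 0.259) and -0.23 ± 0.0934 for SNX2 (edgeR adjusted p = 0.168) neither passed the test. SNX5, a dimer partner of both, was at 89.5, 95.1 and 89.8 CPM with EGF and 88.8, 83.4 and 81.9 CPM with cSNX1.3, groups that also did not overlap (log2FC -0.11, edgeR adjusted p = 0.529). For the other 7 members the groups overlapped, with log2FC of -0.05 for SNX6, 0.03 for SNX3, -0.01 for SNX27, -0.06 for VPS26A, -0.10 for VPS26B, 0.04 for VPS29 and -0.02 for VPS35. The share of all genes whose libraries were apart in this comparison was not counted.

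With erlotinib 3 members rose against EGF, the dimer-forming SNX1, SNX2 and SNX6, and none fell, where 44% of all genes were called and 22.8% were called higher and 21.2% lower. The share of members called was thus no larger than that of genes at large. SNX6 was at 52.6, 66.0 and 54.1 CPM with EGF and at 73.2, 85.9 and 82.5 CPM with erlotinib. All erlotinib libraries were above all EGF libraries, and the rise was 1.41-fold (log2FC 0.50 ± 0.117 SE, edgeR adjusted p = 0.00281). It was called in all 16 repeated fits.

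The rises of SNX1 and SNX2 were smaller. SNX1 reached 60.7, 54.2 and 56.0 CPM with erlotinib (log2FC 0.25 ± 0.0850, edgeR adjusted p = 0.0278) and SNX2 68.9, 80.6 and 73.4 CPM (log2FC 0.25 ± 0.0926, edgeR adjusted p = 0.0387). Both groups stood apart from EGF, although the lowest erlotinib library of SNX2 exceeded the highest EGF library by less than 1 CPM. The call of SNX1 held in 8 of 16 repeated fits and was lost without EGF 1, EGF 2, EGF 3, erlotinib 1 or erlotinib 3 (edgeR adjusted p from 0.0615 to 0.0860). The call of SNX2 held in 6 of 16 and was lost without EGF 1, EGF 3, erlotinib 2 or erlotinib 3 (0.0829 to 0.171), and its log2FC was 0.10 once GC content and length were modelled (edgeR adjusted p = 0.401). Without EGF 1, EGF 3 or erlotinib 3 only SNX6 of the 10 was called. Over all genes 5661, 5716 and 5784 were called in these fits, against 6932 with all libraries. DESeq2 called 2 members, SNX1 and SNX6.

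SNX27, the PDZ adaptor, had the largest change in the other direction without passing the test. It was at 19.3, 13.4 and 19.9 CPM with EGF and 12.1, 15.1 and 12.3 CPM with erlotinib (log2FC -0.41 ± 0.183, edgeR adjusted p = 0.0788). The overlap lay between EGF 2 (13.4 CPM) and erlotinib 2 (15.1 CPM). Without EGF 2 the log2FC was -0.59 (edgeR adjusted p = 0.00640). SNX27 was called in 5 of the 16 repeated fits. SNX5, SNX3 and the whole retromer core overlapped between the groups, with log2FC of 0.04 for SNX5, 0.11 for SNX3, -0.04 for VPS26A, 0.07 for VPS26B, 0.06 for VPS29 and 0.04 for VPS35.

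**Figure D3:**
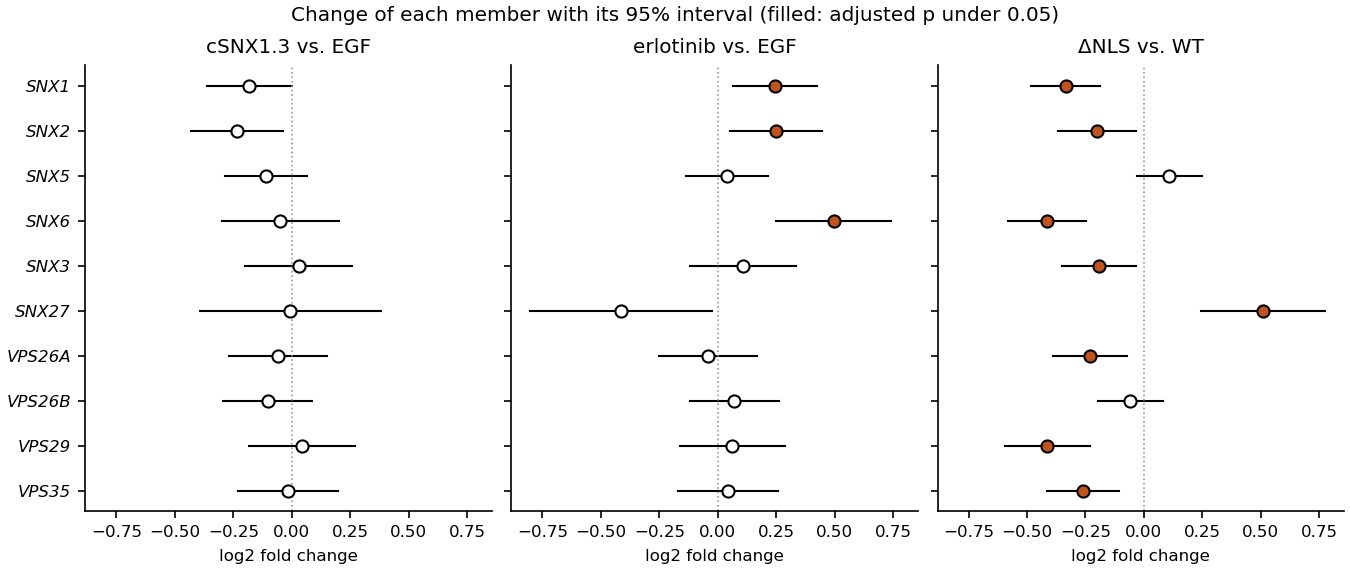
Log2 fold change of each member (horizontal axis) with its 95% interval from edgeR in the peptide, erlotinib and ΔNLS comparisons (panels), n = 3 libraries a group; filled points have an adjusted p under 0.05. No point is filled with cSNX1.3, 3 are filled with erlotinib and 8 in ΔNLS vs. WT, where SNX27 (0.51) lies to the right and the others filled lie to the left.

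The 2 drug comparisons share the 3 EGF libraries, so the drugs were compared directly. SNX1, SNX2 and SNX6 were lower with cSNX1.3 than with erlotinib, the other 7 members were not called, and 56.1% of all genes were called in this contrast (28.5% lower and 27.6% higher with cSNX1.3). The log2FC was -0.43 ± 0.0854 for SNX1 (edgeR adjusted p = 0.000507), -0.48 ± 0.0932 for SNX2 (edgeR adjusted p = 0.000370) and -0.54 ± 0.117 for SNX6 (edgeR adjusted p = 0.000934). These 3 calls held in all 16 repeated fits. The count rose to 7 when the library farthest from its group was left out of each group, with SNX5, SNX3, SNX27 and VPS35 added (9601 of 15889 genes were called in that fit, against 8824 of 15738). It rose to 5 with GC content and length modelled (9336 of 15738 genes). Without cSNX1.3 replicate 1, SNX27 was called as well, higher with cSNX1.3 (log2FC 0.59, edgeR adjusted p = 0.00413), against 0.41 and an edgeR adjusted p of 0.0709 with all libraries. The 2 agents were given at different molar doses.

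In ΔNLS vs. WT cells 8 of the 10 members were called, 7 lower and 1 higher, where 41.4% of 15805 genes were called, 21% lower and 20.4% higher. The median log2FC of the members was -0.22 against 0.00622 for all genes. The libraries of the 2 groups did not overlap for 9 members. How many of all genes were also apart was not counted, so this number has no background to be read against. Over the repeated fits the count ran from 5 to 8. SNX1, SNX6, SNX27, VPS29 and VPS35 were called in all 15 of them.

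Among the dimer-forming nexins, SNX1 was at 62.5, 62.1 and 62.0 CPM in WT and at 49.9, 46.9 and 51.1 CPM in ΔNLS libraries. SNX6 was at 85.1, 96.7 and 81.0 CPM in WT and at 62.6, 68.0 and 66.6 CPM in ΔNLS libraries. Both were thus lower in every ΔNLS library, SNX1 to 0.793 of WT (log2FC -0.33 ± 0.0692, edgeR adjusted p = 0.00103) and SNX6 to 0.750 of WT (-0.41 ± 0.0783, edgeR adjusted p = 0.000494). SNX2 was at 65.7, 80.3 and 70.6 CPM in WT and 63.0, 61.9 and 63.4 CPM in ΔNLS cells, a fall just past the threshold (log2FC -0.20 ± 0.0786, edgeR adjusted p = 0.0495) that held in only 3 of 15 repeated fits. It was lost without ΔNLS 1, ΔNLS 2, ΔNLS 3, WT 2 or WT 3 (edgeR adjusted p from 0.0645 to 0.149). Without WT 2, where SNX2 was highest, the log2FC was -0.12. SNX5 went the other way, from 102.1, 107.5 and 105.3 CPM in WT to 111.9, 115.8 and 111.9 CPM in ΔNLS cells, groups that were apart while the test was not passed (log2FC 0.11, edgeR adjusted p = 0.194).

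Of the adaptors, SNX27 was the only member called higher in ΔNLS cells with all libraries and no offsets, from 15.4, 10.1 and 14.3 CPM in WT to 18.1, 19.9 and 18.8 CPM (1.42-fold, log2FC 0.51 ± 0.126, edgeR adjusted p = 0.00383). Without WT 2, its lowest library, the log2FC was 0.35 and still called (edgeR adjusted p = 0.0307). SNX3 was at 275.0, 321.0 and 276.8 CPM in WT and 260.7, 250.2 and 253.0 CPM in ΔNLS cells. That fall (log2FC -0.19 ± 0.0745, edgeR adjusted p = 0.0483) held in 7 of 15 repeated fits and was lost without ΔNLS 1, ΔNLS 2, ΔNLS 3 or WT 2 (edgeR adjusted p from 0.0667 to 0.145), with a log2FC of -0.11 in the last case.

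In the retromer core the scaffold VPS35 and its partners VPS29 and VPS26A were lower in ΔNLS cells. VPS35 was at 317.9, 348.3 and 304.8 CPM in WT and 260.0, 279.2 and 272.0 CPM in ΔNLS libraries (log2FC -0.26 ± 0.0725, edgeR adjusted p = 0.00883). VPS29 was at 79.0, 95.7 and 76.3 CPM in WT and 63.7, 65.3 and 59.6 CPM in ΔNLS libraries (log2FC -0.41 ± 0.0863, edgeR adjusted p = 0.00114). Both were apart in every library. VPS26A was at 167.6, 182.4 and 171.0 CPM in WT and 135.9, 159.6 and 148.5 CPM in ΔNLS libraries (log2FC -0.23 ± 0.0742, edgeR adjusted p = 0.0197), a call lost without ΔNLS 1 or ΔNLS 3 (edgeR adjusted p = 0.0854 and 0.0698). Its paralog VPS26B overlapped between the groups, at 104.0, 102.4 and 98.9 CPM in WT and 101.0, 97.3 and 94.97 CPM in ΔNLS cells (log2FC -0.06, edgeR adjusted p = 0.517).

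The log2FC of ΔNLS vs. WT rose with the GC content of transcripts across all genes (Spearman rho 0.23 over 15790 genes). With GC content and length modelled, 7 members were called, and SNX2, SNX3 and VPS26A were no longer among them (log2FC -0.08, -0.08 and -0.13), while SNX5 (0.13) and VPS26B (-0.15) were. Leaving out the farthest library of each group, WT 2 and ΔNLS 1, kept the count at 8, of which 2 were higher. Without WT 2 alone or ΔNLS 2 alone 6 were called, and without ΔNLS 1 or ΔNLS 3 alone 5. Over all genes 7126 of 15805 were called with GC content and length modelled and 7239 of 15905 without both farthest libraries. Without WT 2, ΔNLS 2, ΔNLS 1 or ΔNLS 3 alone 6559, 5708, 5773 and 5191 genes were called, against 6538 with all libraries.

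Whether a member changed differently in ΔNLS vs. WT than in cSNX1.3 vs. EGF was tested with all 15 libraries in 1 model, in which 23.1% of 16524 genes were called, 11.3% with a higher and 11.8% with a lower change in ΔNLS cells. Of the members only VPS29 was called. Its change was -0.41 in ΔNLS vs. WT and 0.04 in cSNX1.3 vs. EGF, a difference of -0.45 ± 0.148 (edgeR adjusted p = 0.0305). The differences for SNX6 (-0.36, edgeR adjusted p = 0.101), SNX5 (0.22, edgeR adjusted p = 0.126) and SNX27 (0.52, edgeR adjusted p = 0.152) did not pass, nor did that for SNX1 (-0.15, edgeR adjusted p = 0.328). The call of VPS29 was lost without EGF 1, EGF 3, cSNX1.3 replicate 1, ΔNLS 3 or WT 2 (edgeR adjusted p from 0.0717 to 0.101). SNX6 was called beside VPS29 without EGF 2 or cSNX1.3 replicate 2 (edgeR adjusted p = 0.0290 and 0.0427), and SNX27 as well without EGF 2 (edgeR adjusted p = 0.0333).

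The balance between paralogs was read as the ratio of counts per kb within a library, which does not depend on library scaling. SNX6 exceeded its paralog SNX5 per kb of annotated exon in every library, although SNX5 had the higher CPM. With the longest transcript as the length, SNX5 (24.8 CPM per kb) was above SNX6 (20.4) on average, so this order depends on the length used. The ratio of SNX5 to SNX6 per kb of annotated exon was low in 2 of the 5 groups. It averaged 0.822 ± 0.0716 (SD, n = 3) with EGF, 0.794 ± 0.102 with cSNX1.3, 0.596 ± 0.0160 with erlotinib, 0.618 ± 0.0485 in WT and 0.885 ± 0.0292 in ΔNLS cells. Erlotinib and EGF did not overlap (difference -0.46 on the log2 scale), and neither did ΔNLS and WT (0.52). In both cases the exact two-sided permutation test gave p = 0.1, the smallest it can give with 3 against 3 libraries, or 0.45 after Benjamini-Hochberg adjustment over the 9 comparisons of ratios made.

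The ratios of SNX1 to SNX2 and of VPS26A to VPS26B overlapped between the groups in all 3 comparisons, as did SNX5 to SNX6 with cSNX1.3. SNX1 to SNX2 averaged between 0.679 with EGF or erlotinib and 0.763 in WT cells. VPS26A to VPS26B averaged between 1.91 in ΔNLS cells and 2.36 with cSNX1.3, so VPS26A was the more abundant paralog per kb in every group.

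**Figure D4:**
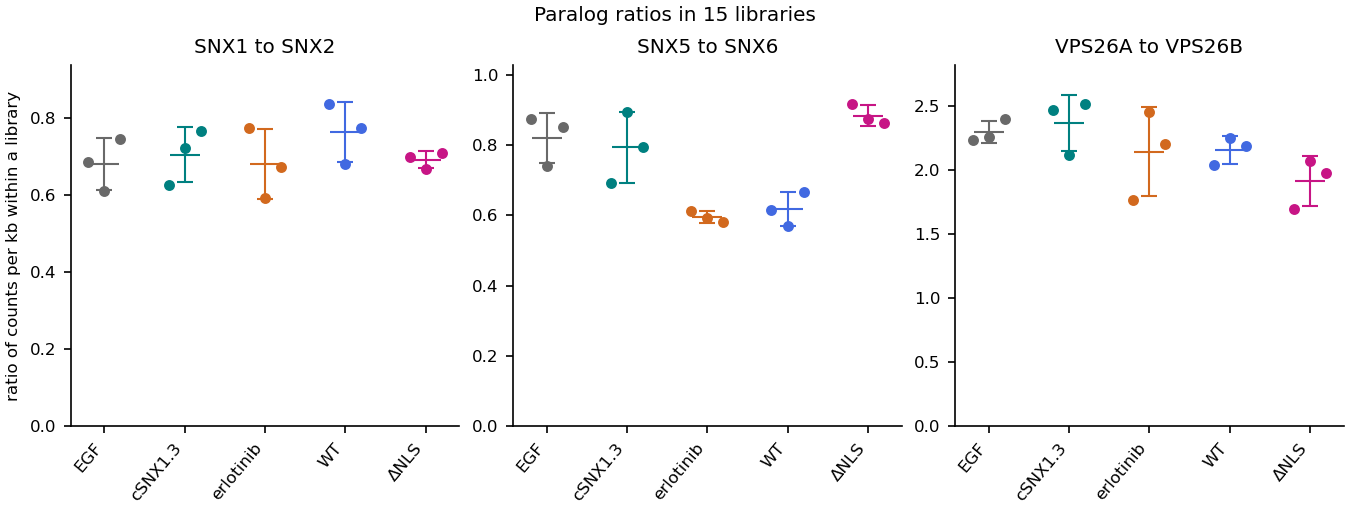
Ratio of counts per kb between paralogs within each library (vertical axis from 0), by group; points are libraries, the long bar is the mean and the whiskers ± SD (n = 3). With the union of annotated exons as the length, SNX5 to SNX6 is near 0.6 with erlotinib and in WT cells. It is 0.79 to 0.89 on average in the other 3 groups, while the groups overlap more for the other 2 ratios.

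Around the 10 members, 7 hand-written lists with 97 genes hold the rest of the machinery and its cargo, of which 91 were tested in each of the drug and line comparisons. With cSNX1.3, 9 of the 91 were called against EGF (9.89%), 3 higher and 6 lower, where 6.07% of all genes were called. Of these, 7 were among the 12 retromer cargo genes and 1 each among the other sorting nexins (SNX9) and the Commander complex (COMMD3), a related coat that recycles integrins. None of the WASH complex, which builds actin on endosomes, of the retromer regulators, of the endosome-to-Golgi tethers and SNAREs or of ESCRT-0 and ESCRT-I was called. The count of 9 was 4 without EGF 1 or cSNX1.3 replicate 2 and 5 without EGF 3 or cSNX1.3 replicate 3. Calls over all genes fell as well, from 956 to 531, 526, 592 and 668 in these fits in the same order. With erlotinib 46 were called (50.5%, against 44% of all genes), 26 higher and 20 lower, and in ΔNLS vs. WT 45 (49.5%, against 41.4% of all genes), 8 higher and 37 lower, so both shares lay near those of genes at large. The excess of lower calls in ΔNLS cells was seen in 6 of the 7 lists by a margin of at least 2 genes, with 8 lower and 2 higher among the other sorting nexins, 6 and 0 in the WASH complex, 3 and 1 among the regulators, 9 and 1 in the Commander complex, 4 and 2 among the cargo and 4 and 0 in ESCRT-0 and ESCRT-I. It was 3 and 2 among the tethers and SNAREs, and over all genes lower and higher calls were nearly equal.

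Genes with the largest called change in their list are given here. SNX9, a nexin that acts at the plasma membrane in endocytosis, rose with cSNX1.3 (64.5 ± 2.91 CPM with EGF to 90.3 ± 1.47, SD, n = 3, log2FC 0.49, edgeR adjusted p = 0.00125) and fell with erlotinib (41.4 ± 1.43 CPM, log2FC -0.63, edgeR adjusted p = 1.51e-05), and was 46.1 and 45.9 CPM in ΔNLS and WT cells. SNX21 rose in ΔNLS cells (6.0 to 8.44 CPM, log2FC 0.49, edgeR adjusted p = 0.00320). Opposite calls with the 2 drugs were also found for COMMD3 (log2FC -0.76 with cSNX1.3 and 0.54 with erlotinib), for the copper transporter ATP7A (-0.56 and 1.10) and, in the other order, for the integrin chain ITGB1 (0.38 and -0.49). As the comparisons share the EGF libraries, these are the values of each and not an independent repeat.

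Among the remaining named genes, erlotinib raised WASHC3, a WASH subunit (11.9 to 18.7 CPM, log2FC 0.66), TBC1D5, a RAB7 GTPase-activating protein that binds the retromer (30.8 to 47.7 CPM, log2FC 0.64), the SNARE VAMP4 (18.3 to 30.2 CPM, log2FC 0.73) and the Commander subunit VPS35L (log2FC 1.303). VPS35L was low throughout, at 0.493, 0.879 and 1.63 CPM with EGF (12, 23 and 44 counts) and 2.88, 1.92 and 2.61 CPM with erlotinib (97, 47 and 74 counts). HGS, the ESCRT-0 subunit that sorts ubiquitinated EGFR toward the lysosome, fell with erlotinib from 122.1 ± 3.50 to 79.6 ± 11.7 CPM (log2FC -0.61). In ΔNLS cells WASHC3 (log2FC -0.33), EHD1, an ATPase of recycling tubules (-0.43), COMMD8 (-0.79), ITGB1 (-0.63), the SNARE VTI1A (-0.29) and the ESCRT-I subunit VPS37B (-0.31) were lower than in WT. The edgeR adjusted p of these 11 changes ran from 1.55e-06 (ITGB1) to 0.0274 (VTI1A).

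Other cargo called with cSNX1.3 included SLC2A1, the glucose transporter GLUT1 (log2FC 0.42), SLC11A2, an iron transporter (-0.41), and the Golgi-to-endosome sorting receptors SORL1 (-0.36) and SORT1 (-0.29), which were named after their values were seen. With erlotinib SLC2A1 (log2FC -0.50), SORL1 (0.84) and SORT1 (0.31) were called in the opposite direction, and SLC11A2 (-0.12) was not called. Here too the comparisons share the EGF libraries. The cargo receptors most often used to follow retromer, IGF2R and M6PR, were not called with cSNX1.3 (log2FC 0.12 and -0.00305, edgeR adjusted p = 0.508 and 0.991).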

How the data were processed

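The 15 poly(A) libraries of the breast cancer line MDA-MB-468 were grouped by their labels. According to the study's methods the authors trimmed reads with TrimGalore, aligned them to GRCh38 with STAR and counted read pairs per gene with featureCounts, unstranded. The deposited values are raw counts, not normalized. The annotation release is not given in the sources used here, and 61399 of 61552 gene IDs were matched to GENCODE 44, 153 were not. The submitters' processing notes name DESeq2 and hg38. Library totals of 22915676 to 35900649 limit the precision of low genes, of which SNX27 (279 to 645 counts) is the lowest member.

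Differential expression was tested here in edgeR 4.0.16 (R 4.3.3) with TMM scaling, filterByExpr by group, a robust quasi-likelihood fit and Benjamini-Hochberg adjustment over all genes tested, at a threshold of 0.05. The 9 drug libraries, the 6 line libraries and, for the difference of effects, all 15 were fitted as 3 sets. CPM are TMM-scaled, and log2 CPM used a prior count of 2. Ratios of paralogs were compared with exact two-sided permutation tests. The code was tested on simulated data. In the simulated ΔNLS vs. WT fit of 15590 genes, 9 of 50 genes changed by 1.2-fold and 49 of 50 changed by 1.5-fold were recovered, with 10 of 168 calls on unchanged genes. In that of cSNX1.3 vs. EGF, of 15450 genes, 7 of 153 calls were on unchanged genes. Far more genes were called in the data (6538 in ΔNLS vs. WT and 956 in cSNX1.3 vs. EGF), so the shares recovered do not carry over.

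The members and lists were chosen with earlier results of these data known. Named genes are the members in every comparison, the called gene with the largest absolute log2FC and a mean of at least 1 CPM in each list, and the 5 genes nearest to SNX1 across libraries. The values of 1 cargo gene that this rule names are not reported here. The 7 lists come from general knowledge and were compiled by hand. Alternatives were DESeq2 1.42.0, its size factors, no filter, at least 10 counts in every library, an adjusted p of 0.01, other sets of libraries in the fit, the replicate number as a block, each library left out, and for ratios the length and 0.5 added to counts. Leaving out the farthest library of each group and offsets for GC content and length were chosen after seeing the data. Promoter sequences are from RefSeq.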

Additional observations from a re-analysis of the deposited data

Results flagged for a closer look

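VPS29, the smallest subunit of the retromer core, is listed because its changes in the line and drug experiments differed by a test of the difference itself. Its log2FC was -0.41 in ΔNLS vs. WT and 0.04 in cSNX1.3 vs. EGF, and the difference was -0.45 ± 0.148 (SE, edgeR adjusted p = 0.0305, 3 libraries in each of 4 groups). All ΔNLS libraries were below all WT libraries, whereas the cSNX1.3 and EGF libraries overlapped. The call held in 13 of 20 repeated fits. No other member met this rule, and the adjusted p of SNX6, the next one, was 0.101 with edgeR.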

How the results depend on the processing

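Changes near 1.2-fold were mostly undetected in the simulated counts, where far fewer genes were called than in the data. SNX27 had the fewest counts of the members (279 to 645). Of 830 repeated values of single members, 719 kept direction and side of the threshold. Of 247 repeated counts and ratios, 30 moved further from the main fit and 8 turned direction. The other 209 include counts that differed from the main fit. With erlotinib the wider lists held 30 to 58 calls over 16 repeated fits, against 46 in the main fit, and 15 of these fits are among the 209. The cause of each change below was not tested. At an adjusted p of 0.01 the members called were 1 (erlotinib vs. EGF), 5 (ΔNLS vs. WT) and 0 (difference of effects), and the genes of the 7 wider lists 4 (cSNX1.3), 30 (erlotinib), 27 (ΔNLS) and 9 (difference of effects). In a fit of all 15 libraries 5 members were called in ΔNLS vs. WT, with 5587 of 16524 genes called. In the difference of effects 2 members were called with no filter (3641 of 33721 genes) and 2 with GC content and length modelled (4679 of 16524 genes). In cSNX1.3 vs. erlotinib 7 members were called with the farthest library of each group left out and 5 with GC content and length modelled. Over all genes 9601 of 15889 and 9336 of 15738 were called in these fits. For the difference of effects the wider lists held 23 and 26 calls with the same 2 settings, where 4381 of 16572 and 4679 of 16524 genes were called.

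With single libraries left out, the members called ranged from 1 to 3 (erlotinib), 5 to 8 (ΔNLS) and 0 to 3 (difference of effects), and the wider genes from 4 to 8 (cSNX1.3). Over all genes the calls then ranged from 5661 to 6773 (erlotinib), 5191 to 6559 (ΔNLS), 3106 to 4167 (difference of effects) and 526 to 892 (cSNX1.3). The arm left with fewer libraries borrows the spread of the others. Directions of uncalled members turned within these ranges of log2FC. For cSNX1.3 vs. EGF they were -0.18 to 0.0476 (SNX6), -0.0803 to 0.13 (SNX3), -0.18 to 0.17 (SNX27), -0.14 to 0.0134 (VPS26A), -0.0722 to 0.10 (VPS29) and -0.11 to 0.0539 (VPS35). For erlotinib vs. EGF they were -0.00825 to 0.0876 (SNX5), -0.12 to 0.0178 (VPS26A), -0.00294 to 0.11 (VPS26B), -0.0203 to 0.12 (VPS29) and -0.0142 to 0.11 (VPS35). They were -0.0894 to 0.0636 (VPS26A) and -0.13 to 0.0629 (VPS29) for cSNX1.3 vs. erlotinib and -0.0277 to 0.12 (SNX2) for the difference of effects. The log2 ratio of SNX1 to SNX2 ranged from -0.0257 to 0.13 (cSNX1.3 vs. EGF) and -0.10 to 0.0896 (erlotinib vs. EGF), that of SNX5 to SNX6 from -0.15 to 0.0409 (cSNX1.3 vs. EGF), and that of VPS26A to VPS26B from -0.00782 to 0.12 and -0.22 to 0.0174 in the same comparisons.

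With the farthest libraries left out, the log2FC turned for SNX27 (0.00459) and VPS29 (-0.0167) in cSNX1.3 vs. EGF and for VPS26A (0.0562) in erlotinib vs. EGF. With GC content and length modelled it turned for SNX5 (-0.0143), SNX3 (-0.0428) and VPS29 (-0.13) in erlotinib vs. EGF, for SNX3 (0.13), VPS26A (0.11) and VPS29 (0.23, edgeR adjusted p = 0.0163) in cSNX1.3 vs. erlotinib, and for VPS26B (-0.0582) in the difference of effects.

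The labels used here link libraries of different groups only by a replicate number. Same-numbered libraries deviated from their group with correlations from -0.41 to 0.44, and differently numbered ones from -0.57 to 0.62. With 3 libraries a group such correlations cannot show whether libraries of different groups shared a batch. With the replicate block, the calls of SNX2 with erlotinib (edgeR adjusted p = 0.0531) and of SNX2 and SNX3 in ΔNLS cells (0.0807 and 0.0965) were lost, and no other call of a member changed.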

Other observations

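The genes whose pattern over the 15 libraries was nearest to that of SNX1 were WBP1L, the solute carrier SLC4A11, the early endosome GTPase RAB5B, ZBED1 and the long noncoding RNA SLC12A2-DT. The measure is the Euclidean distance between log2 CPM values over 15 libraries, each centred on the mean of its gene. It was ranked among 12239 genes that averaged 1 CPM or more. Their range of group means had to pass a floor set well below that of SNX1 (0.55 on the log2 scale). The distances were 0.260, 0.277, 0.326, 0.327 and 0.330. The nearest other member was SNX2 at rank 156, followed by VPS26B at rank 278.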
